A study of Mus musculus with 4 samples.

Results

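The mitosis, spindle and chromosome condensation genes are 42 genes that act from entry into mitosis to the separation of the daughter cells. They were taken by symbol from a fixed list, and all 42 were found among the 35275 genes of the deposited table, once each. Expression was measured by RNA sequencing in mouse double-negative regulatory T cells, αβ T cells without CD4 and CD8 that restrain other immune cells. The cells had been converted from naive CD4 T cells and, per the labels, sorted as lacking CD4, CD8 and NK markers while carrying CD3 and TCRαβ. One group came from wild-type C57BL/6 mice (wt, 2 libraries) and the other from OX40-knockout mice of the same strain (2 libraries). OX40, the product of Tnfrsf4, is a receptor on activated T cells that adds to the signal of the antigen receptor. The labels name no treatment or age, give neither the deleted stretch of the gene nor the cells that lack it, and do not tell if the 2 libraries of a genotype stem from different mice or cultures. The p-values therefore reflect the spread of these libraries alone, which may be technical.

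Mitosis is driven by CDK1 bound to cyclin B, together with the polo and aurora kinases. Condensin and topoisomerase II compact and untangle the chromosomes, kinetochores tie them to spindle microtubules that kinesin motors arrange, and a checkpoint holds the anaphase-promoting complex until every kinetochore is attached. Separase then frees the sister chromatids, and the central spindle directs cytokinesis. T cells divide in rapid rounds after activation, and transcripts of these genes are high in dividing and very low in resting lymphocytes. The 42 genes were divided here into 7 kinesins, 9 genes of the kinetochore and centromere, 9 of kinases and cyclins, 6 of condensin and chromosome structure, 4 of cytokinesis, and 7 of spindle assembly and anaphase, the last including the transcription factor gene Foxm1.

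Values are RPKM, read numbers corrected for the length of the transcript and the depth of the library. The totals that the values imply were between 22220888 and 24395743 reads a library, and a member had between 228 and 16176 reads in a library. OX40-knockout 1 stood apart from the other libraries, with a score of 34.2 on a first principal component that held 71.0% of the variance, against scores between -18.1 and -0.06 for the rest, so results below are also given without it. Tnfrsf4 itself was at 18.2 and 12.3 RPKM (wild-type) against 12.1 and 9.38 RPKM (knockout), with a limma adjusted p of 0.975 for the difference. Since the deleted part is not named, this level is a weak check of the labels. All 6 T cell markers were read in every library, with a summed level between 1833 and 2148 RPKM in the wild-type and between 1857 and 2070 RPKM in the knockout libraries. Of the markers of other cells, the 3 NK genes summed to 213 and 317 RPKM (wild-type) against 118 and 300 RPKM (knockout). Of these, Klrb1c encodes an NK marker of this strain, was at 98.5 and 160 against 42.8 and 159 RPKM, and so was not absent from the sorted cells. The 3 coreceptor genes summed to 14.6 and 14.9 against 31.1 and 13.1 RPKM, the 5 myeloid genes to 4.15 and 10.9 against 3.05 and 7.65 RPKM, the 4 B cell genes to between 2.54 and 4.80 RPKM, and the 3 erythroid genes to between 0.69 and 4.70 RPKM. The genes of highest mean in these lists were Cd3g (665 RPKM), Eomes (118 RPKM), Cd8a (11.6 RPKM), Cd79b (2.56 RPKM), Hba-a1 (2.34 RPKM) and Lyz2 (2.27 RPKM). Cd3e, a chain of the T cell receptor complex, was at 332 and 280 RPKM (wild-type) against 328 and 248 RPKM (knockout). Cd4 was at 0.82 and 1.97 against 10.1 and 2.06 RPKM, and the B cell gene Ms4a1 was listed at 0 in every library.

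Promoters of mitosis genes are known for a cell cycle genes homology region (CHR), which recruits the DREAM complex in resting cells and B-MYB and FOXM1 with MuvB in dividing ones, and for CCAAT boxes bound by NF-Y. Promoter windows of 250 bases before to 50 bases after the transcript start were available from RefSeq (GRCm38.p6) for 35 of the 42 genes. That is not the build the submitters' notes name for the reads, and the windows were used by gene symbol. A CHR was searched as TTTGAA or TTCGAA and a CCAAT box as CCAAT, each on both strands, and no match of one overlapped a match of the other. The CHR was present for 28 of the 35 genes (80.0%), against 21.7% of the 27025 genes in the promoter table. Within 50 bases of the start it was present for 26 genes (74.3%), against 6.12% of all. A CCAAT box was present for 26 genes (74.3%), against 41.1% of all, and both elements for 24 (68.6%), against 8.61%. All 6 kinesin genes with a window held a CHR, as did all 4 cytokinesis genes, 5 of 6 genes of kinases and cyclins and 5 of 9 kinetochore and centromere genes.

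The arrangement is shown by 6 windows, given 5′ to 3′ on the strand of the gene from 150 bases before the start through the first 30 transcribed bases, with every CHR or CCAAT match in capitals. A match on the other strand appears as its reverse complement, TTCAAA for the CHR and ATTGG for CCAAT. They are those of Cdk1 (chr10:69352883-69353062, minus strand), Ccnb2 (chr9:70421525-70421704, minus strand), Cdc20 (chr4:118437314-118437493, minus strand), Top2a (chr11:99024160-99024339, minus strand), Kif11 (chr19:37376232-37376411, plus strand) and Birc5 (chr11:117849087-117849266, plus strand).
Cdk1: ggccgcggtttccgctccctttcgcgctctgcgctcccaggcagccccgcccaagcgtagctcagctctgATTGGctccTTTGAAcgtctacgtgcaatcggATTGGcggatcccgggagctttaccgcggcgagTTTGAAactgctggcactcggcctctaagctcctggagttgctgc
Ccnb2: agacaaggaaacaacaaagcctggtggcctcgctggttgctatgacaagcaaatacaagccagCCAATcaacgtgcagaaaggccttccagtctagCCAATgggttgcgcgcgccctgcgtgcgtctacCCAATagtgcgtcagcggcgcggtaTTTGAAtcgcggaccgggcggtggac
Cdc20: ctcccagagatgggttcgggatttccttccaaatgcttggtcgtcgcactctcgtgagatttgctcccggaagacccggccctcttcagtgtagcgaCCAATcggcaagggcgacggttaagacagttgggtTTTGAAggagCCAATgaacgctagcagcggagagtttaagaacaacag
Top2a: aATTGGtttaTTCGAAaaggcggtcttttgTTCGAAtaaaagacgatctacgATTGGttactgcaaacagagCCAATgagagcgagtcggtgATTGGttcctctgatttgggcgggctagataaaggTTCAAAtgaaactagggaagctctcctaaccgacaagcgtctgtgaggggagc
Kif11: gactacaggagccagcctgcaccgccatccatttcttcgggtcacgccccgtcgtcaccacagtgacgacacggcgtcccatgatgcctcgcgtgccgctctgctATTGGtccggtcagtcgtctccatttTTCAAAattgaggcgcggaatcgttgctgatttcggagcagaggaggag
Birc5: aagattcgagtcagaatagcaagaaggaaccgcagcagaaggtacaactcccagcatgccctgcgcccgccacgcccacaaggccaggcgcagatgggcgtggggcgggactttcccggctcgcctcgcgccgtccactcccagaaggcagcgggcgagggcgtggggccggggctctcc
Cdk1, Ccnb2, Cdc20 and Kif11 each held a CHR close to the start with a CCAAT box upstream of it, while the Top2a stretch held 3 CHR and 4 CCAAT matches. Birc5 is shown as one of the 5 genes whose window held neither string. The others were Mad2l1, Ncaph, Nuf2 and Nusap1, and these are statements about the letters in the window only.

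**Figure D1:**
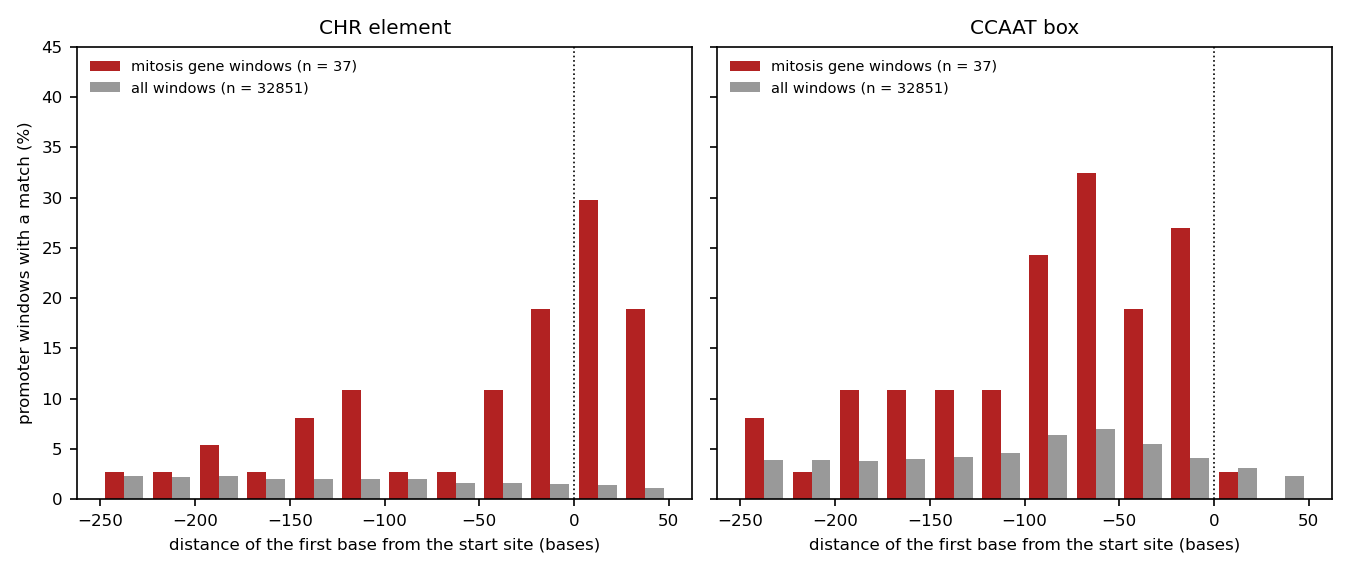
Share of promoter windows in percent (vertical axis) with the first base of a CHR match (left) or a CCAAT match (right) in each stretch of 25 bases by distance from the transcript start (horizontal axis), for 37 windows of the 35 mitosis genes (red) and all 32851 windows (grey). The CHR share of mitosis genes is highest just after the start, at 29.7% against 1.43%, and the CCAAT share between 75 and 50 bases before it, at 32.4% against 6.99%.

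All 42 mitosis genes were expressed in all 4 libraries, with a mean from 5.71 to 364 RPKM and a median of 38.8 RPKM, against a median of 15.8 RPKM over the 11625 genes tested. Top2a, the topoisomerase that untangles sister chromatids, was at 408 and 391 RPKM (wild-type) against 309 and 348 RPKM (knockout). Smc4, a core subunit of condensin, stood at 175 and 177 RPKM against 139 and 167 RPKM. Next by mean came Racgap1, which encodes a subunit of centralspindlin, the centromeric histone gene Cenpa and Cdk1. Cdc25c, the phosphatase that switches CDK1 on, and Anln, the contractile ring scaffold, were lowest, and for Cdc25c the libraries held only 262 and 308 reads in the wild-type and 228 and 229 reads in the knockout.

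The order of levels depends on the transcript length behind each RPKM value. The length implied by the values, chosen as the fitting length nearest the annotated mean, was under 60% of the longest annotated transcript for 25 of the 42 genes. For Top2a the implied length was 1696 bases and the longest transcript 5221 bases, whereas for Mki67, the proliferation marker that coats mitotic chromosomes, it was 10075 against 10061 bases. Rescaled to the longest transcript, Top2a was still highest at 118 RPKM and Smc4 next at 69.0 RPKM, but Ccnb2, Mki67 and Ube2c came next, at 56.4, 54.0 and 49.2 RPKM. Cdk1 went from rank 5 to rank 22 and Cenpa from rank 4 to rank 17. Differences between libraries in 1 gene do not depend on this length.

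**Figure D2:**
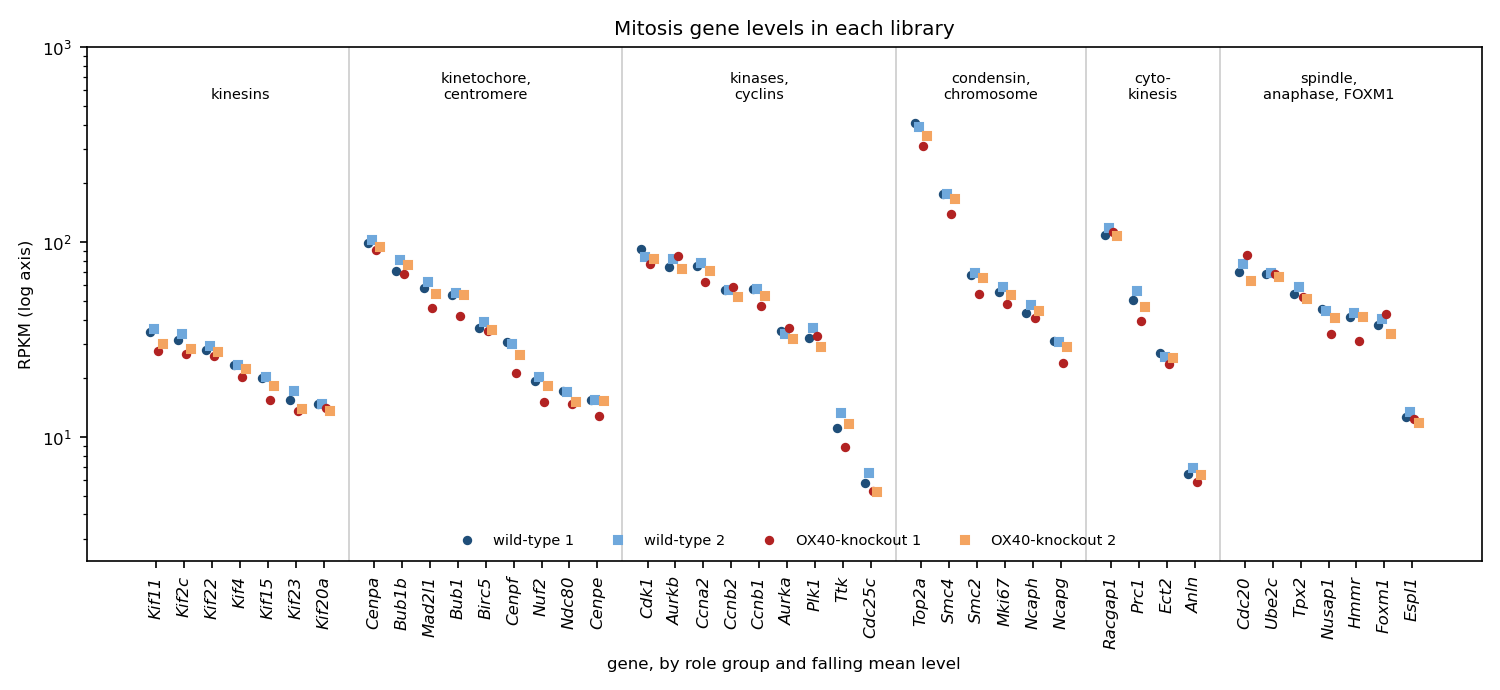
RPKM (log axis) of the 42 mitosis genes in each of the 4 libraries, 1 point a library, ordered by role group and falling mean level. Levels span from 5.71 RPKM for Cdc25c to 364 RPKM for Top2a as means, and for every kinesin both knockout points lie below both wild-type points.

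Levels of the mitosis transcripts were next compared between the knockout and the wild-type libraries. Of the 42 genes, 41 had a lower mean in the knockout on the log2 scale, where 56.6% of all tested genes did, and for 31 (73.8%) both knockout values lay under both wild-type values, against 17.8% of all tested genes. No member was higher in both, against 8.66% of all. The differences were small, with a median log2 difference of -0.16 (from -0.34 for Cenpf to 0.01 for Aurkb), against -0.03 over all genes tested. None passed the test on its own: limma called 0 of the 42 at an adjusted p under 0.05 (0% of all tested genes passed), none had an unadjusted p under 0.05 (1.39% of all tested genes did, and 0.843% of all did with a lower value in the knockout), and limma-voom on recovered reads called 0 with 1 at an unadjusted p under 0.05, where 129 of all 11625 genes were. The library most often highest was wild-type 2 (29 of 42 genes) and the one most often lowest OX40-knockout 1 (30 of 42). No member was lowest in a wild-type library or highest in OX40-knockout 2. Without OX40-knockout 1 the number lower was again 41, with a median of -0.11.

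**Figure D3:**
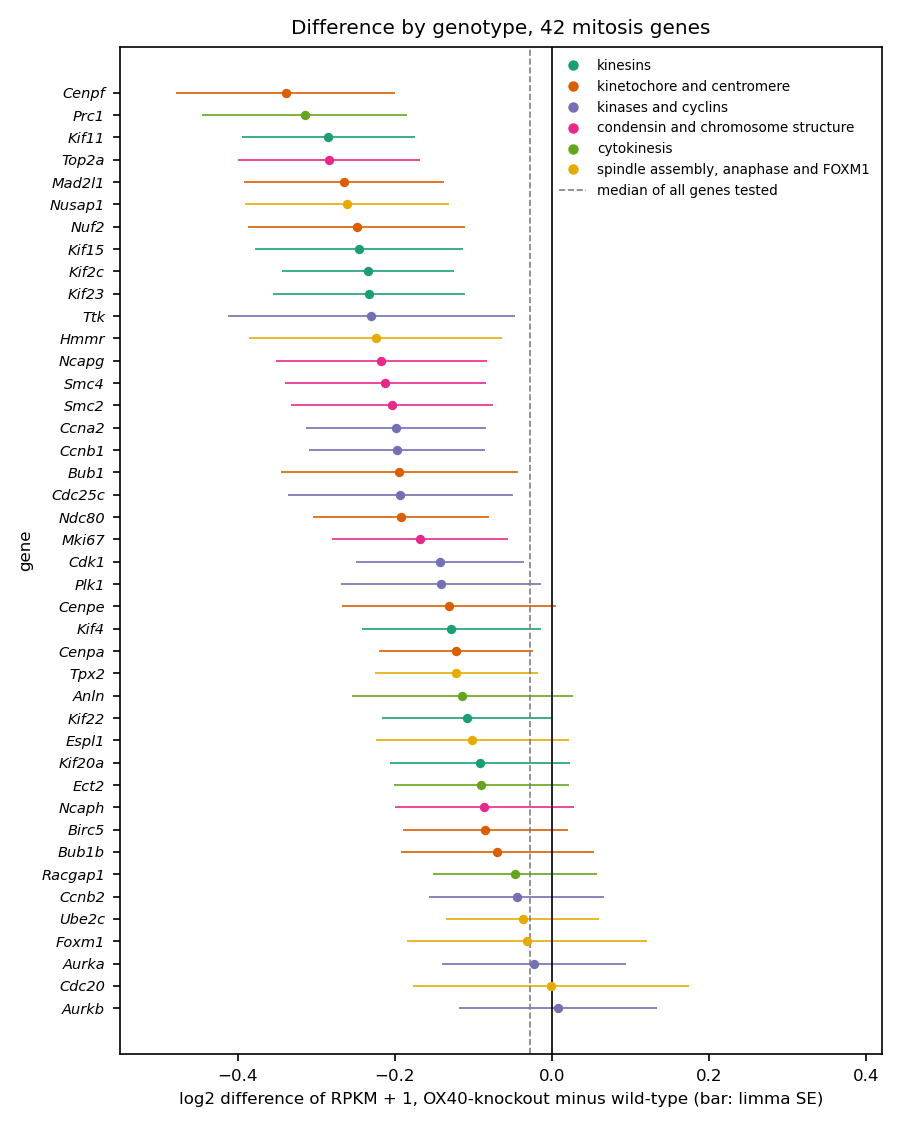
Log2 difference of RPKM + 1 between knockout and wild-type (horizontal axis, with the limma standard error as bar; n = 2 libraries each) for the 42 mitosis genes, colored by role group, with the median of all genes tested dashed. The points run from -0.34 for Cenpf to 0.01 for Aurkb, and only Aurkb lies above 0 (below 0 after GC correction and without wild-type 1 or OX40-knockout 1).

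Both knockout libraries took part. OX40-knockout 1 was below both wild-type libraries for 35 genes (46.8% of all tested genes were) and OX40-knockout 2 for 38 genes (41.5%). These comparisons share the wild-type libraries. Within replicate number 1 the median difference between knockout and wild-type was -0.20, with 35 of 42 genes lower, and within number 2 it was -0.13, with all 42 lower. Over all 11625 tested genes these medians were -0.02 and -0.04, with 6039 and 7218 genes lower. Libraries of 1 genotype also differed, wild-type 2 from wild-type 1 by a median of 0.06 and OX40-knockout 2 from OX40-knockout 1 by 0.11, against -0.16 between the genotypes.

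The kinesins were the 1 role group with every member lower in both knockout libraries, all 7 of them (17.8% of all tested genes were). After GC correction this held for 5 of 7 kinesins (12.8% of all tested genes). It then also held for 5 of 9 kinetochore and centromere genes and 4 of 6 genes of condensin and chromosome structure. Of the 5 further kinesins described below it held for 3, or 1 after GC correction. The median log2 difference of the 7 kinesins was -0.23. Kif11, the motor that pushes spindle poles apart, was at 34.5 and 35.9 RPKM (wild-type) against 27.5 and 29.96 RPKM (knockout). Its difference of -0.28 (SE 0.11, limma adjusted p = 0.975) had the lowest p of the 42 genes. Kif2c, a microtubule depolymerase of the centromere, was at 31.6 and 33.6 against 26.7 and 28.4 RPKM, with a difference of -0.23 (SE 0.11). In both genes OX40-knockout 1 was lowest and wild-type 2 highest. Kif20a, which works at the central spindle late in mitosis, was lowest of the group and differed least, at 14.7 and 14.8 against 14.0 and 13.5 RPKM. The remaining motors were Kif15, which backs up Kif11, Kif23 of centralspindlin, and the chromosome-bound Kif4 and Kif22, and their differences ran from -0.25 for Kif15 to -0.11 for Kif22. The group median was -0.13 without OX40-knockout 1 and -0.12 after GC correction.

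In the kinetochore and centromere group 8 of 9 genes were lower in both knockout libraries, against 17.8% of all tested genes. After GC correction 5 of 9 were (12.8% of all). The median log2 difference was -0.19. Cenpf, a large protein of the outer kinetochore, had the largest difference of all 42 genes, at 30.7 and 29.8 RPKM (wild-type) against 21.4 and 26.3 RPKM (knockout) (-0.34, SE 0.14, limma adjusted p = 0.975). Mad2l1, the checkpoint protein that restrains CDC20, was at 58.2 and 62.3 against 45.9 and 54.3 RPKM. In both genes OX40-knockout 1 was the lowest library, as it was in all 9 genes of the group. Cenpa, the histone variant that marks centromeres, was highest in level, at 98.9 and 102 against 90.5 and 94.2 RPKM. Bub1b, a checkpoint protein, was the only one whose groups overlapped, at 71.4 and 81.1 against 68.6 and 76.5 RPKM. Cenpe, a kinetochore motor, was the lowest in level, at 15.4 and 15.5 against 12.9 and 15.3 RPKM, so OX40-knockout 2 was close to the wild-type. Ndc80 and Nuf2, partners in the complex that binds microtubules, differed by -0.19 and -0.25, the checkpoint kinase gene Bub1 by -0.19, and Birc5, the survivin subunit of the chromosomal passenger complex, by -0.08. Without OX40-knockout 1 the group median was -0.09 and Bub1b was at 0.01, and after GC correction they were at -0.08 and 0.02.

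Kinases and cyclins were mixed, with a median of -0.14. In this group 4 of 9 genes were lower in both knockout libraries (17.8% of all tested genes were). After GC correction it was again 4 of 9 (12.8% of all). Ccna2, encoding cyclin A2 of S and G2 phase, was at 75.3 and 78.1 RPKM (wild-type) against 62.5 and 71.2 RPKM (knockout). Ccnb1, the main mitotic cyclin, was at 57.1 and 57.7 against 46.9 and 53.0 RPKM, with a difference of -0.20 (SE 0.11, limma adjusted p = 0.975). For these cyclins both knockout libraries lay below both wild-type libraries. Cdk1, their kinase partner, was at 91.8 and 83.6 against 77.3 and 81.3 RPKM, and Cdc25c at 5.81 and 6.504 against 5.29 and 5.23 RPKM. Exact 95% Poisson intervals of Cdc25c overlapped between wild-type 1 (5.13 to 6.56 RPKM) and OX40-knockout 2 (4.57 to 5.95 RPKM), and they cover counting error only. Aurkb, the kinase of the chromosomal passenger complex, was at 74.2 and 82.0 against 84.4 and 72.9 RPKM, with OX40-knockout 1 highest and OX40-knockout 2 lowest of the libraries. Aurka and Ccnb2 had the same order at the extremes. Plk1 was lowest in OX40-knockout 2, and Ttk, a checkpoint kinase, lowest in OX40-knockout 1. The group median was -0.11 without OX40-knockout 1 and -0.09 after GC correction.

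Ratios of transcripts within a library were also compared. Ccnb1 over Ccnb2 was 1.00 and 1.01 in the wild-type libraries and 1.02 in OX40-knockout 2, but 0.80 in OX40-knockout 1. Cdc20 over Ccnb1 was 1.22 and 1.33 in the wild-type and 1.19 in OX40-knockout 2, but 1.82 in OX40-knockout 1. Smc4 over Top2a was 0.43 and 0.45 in the wild-type, 0.45 in OX40-knockout 1 and 0.48 in OX40-knockout 2, so there OX40-knockout 1 lay within the wild-type range. These are ratios of RPKM values and show only that 2 transcripts differed unequally. They are not corrected for GC content, which was 54.4% for Cdc20, 44.9% for Ccnb1 and 49.3% for Ccnb2. In OX40-knockout 1 the log2 deviations from the mean of the 4 libraries were 0.22 for Cdc20, -0.18 for Ccnb1 and 0.06 for Ccnb2. After GC correction they were 0.14, -0.05 and 0.12. The part of GC content in the ratios was not tested.

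Of the genes of condensin and chromosome structure, 5 of 6 were lower in both knockout libraries (17.8% of all tested genes were). After GC correction 4 of 6 were (12.8% of all). The median log2 difference was -0.21. Top2a had a difference of -0.28 (SE 0.12, limma adjusted p = 0.975). Its exact 95% Poisson intervals did not overlap between any wild-type and any knockout library, since OX40-knockout 2 reached from 342 to 354 RPKM and wild-type 2 from 385 to 397 RPKM, but this compares the libraries, not the genotypes. Smc4 differed by -0.21 (SE 0.13), and the other core subunit gene, Smc2, by -0.20. Ncapg, a subunit of condensin I, was lowest of the group, at 31.0 and 30.7 RPKM (wild-type) against 23.9 and 29.0 RPKM (knockout). Mki67 was at 55.5 and 58.7 against 48.0 and 53.5 RPKM, with a difference of -0.17 (SE 0.11). Ncaph was the only gene of the group whose libraries overlapped between genotypes. OX40-knockout 1 was lowest in all 6 genes, and the group median was -0.08 without it and -0.34 without OX40-knockout 2. After GC correction the group median was -0.06, with Smc4 at -0.04 and Ncapg at -0.03.

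Of the 4 cytokinesis genes 3 were lower in both knockout libraries (17.8% of all tested genes were), and the median was -0.10. Prc1, which bundles the central spindle, had the second largest difference of the 42 genes, at 50.6 and 56.1 RPKM (wild-type) against 39.4 and 46.2 RPKM (knockout) (-0.31, SE 0.13, limma adjusted p = 0.975). Anln was at 6.43 and 6.94 against 5.84 and 6.36 RPKM, and the wild-type 1 and OX40-knockout 2 values were close. Racgap1 overlapped between genotypes, at 109 and 119 against 112 and 108 RPKM. Ect2, the exchange factor that activates RhoA at the cleavage site, was at 26.8 and 25.6 against 23.7 and 25.5 RPKM. After GC correction the group median was -0.02 and 2 of 4 genes were lower (49.4% of all tested genes were). Then 1 of 4 was lower in both knockout libraries (12.8% of all).

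Genes of spindle assembly and anaphase, with Foxm1, had a median of -0.10. Of these, 4 of 7 were lower in both knockout libraries (17.8% of all tested genes were). After GC correction 3 of 7 were (12.8% of all). Nusap1, a microtubule-bundling protein at chromosomes, was at 45.3 and 44.1 RPKM (wild-type) against 33.9 and 40.7 RPKM (knockout) (-0.26, SE 0.13, limma adjusted p = 0.975). Hmmr, a spindle pole protein, was at 41.1 and 43.0 against 31.2 and 41.1 RPKM, so that only OX40-knockout 1 stood apart. Tpx2, the activator of Aurora A on the spindle, differed by -0.12. Cdc20, the activator of the anaphase-promoting complex, was at 69.8 and 77.0 against 85.2 and 62.9 RPKM, highest in OX40-knockout 1 and lowest in OX40-knockout 2. Its ubiquitin-conjugating partner Ube2c hardly varied, at 68.8 and 69.4 against 68.7 and 66.0 RPKM. Espl1, encoding separase, was at 12.6 and 13.5 against 12.4 and 11.7 RPKM. Foxm1, a transcription factor that drives many of the genes described here, was at 37.4 and 40.4 against 42.9 and 33.7 RPKM, in the same order as Cdc20. For both, the log2 difference was near 0 (-0.0013 for Cdc20, SE 0.18, or 0.03 with median-of-ratios scaling, and -0.03 for Foxm1, SE 0.15). The mean RPKM of Cdc20 was 74.1 in the knockout and 73.4 in the wild-type, so its sign depends on the scale. Without OX40-knockout 1 these were -0.22 and -0.20, and without OX40-knockout 2 they were 0.22 and 0.14. Without wild-type 2 they were 0.07 and 0.02. The group median was -0.13 without OX40-knockout 1 and -0.07 after GC correction.

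**Figure D4:**
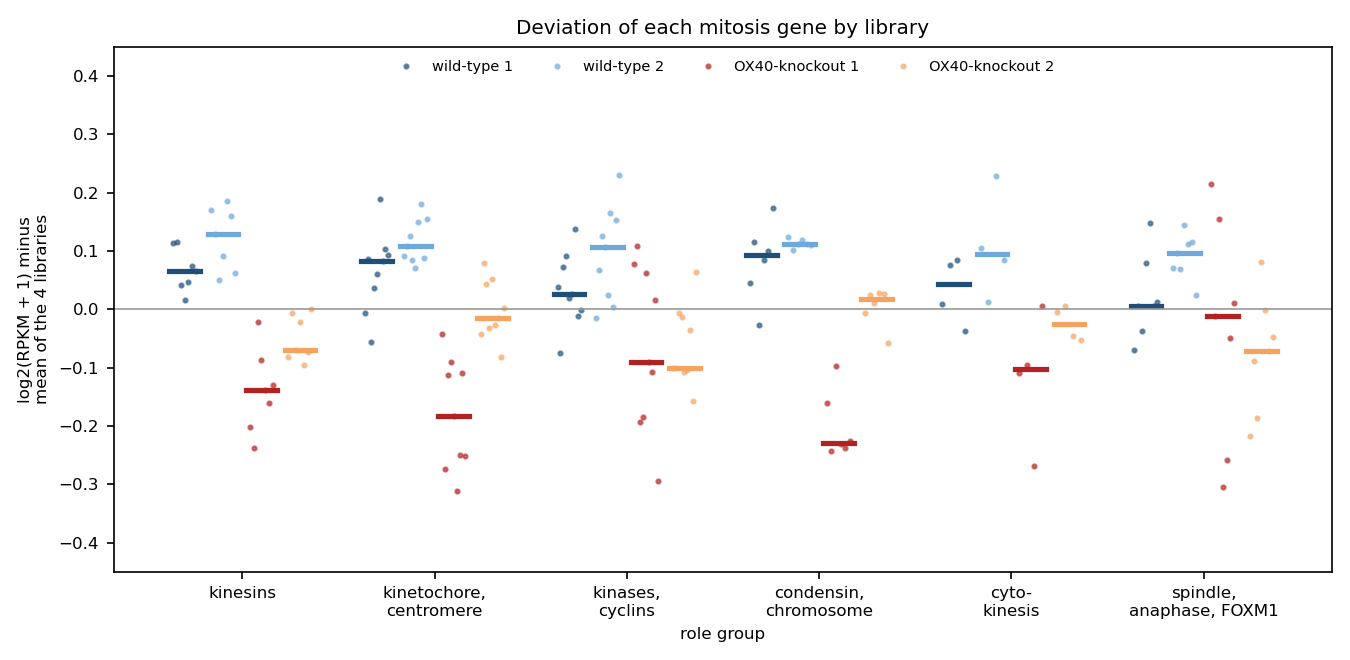
Deviation of log2(RPKM + 1) from the mean of the 4 libraries (vertical axis) for each mitosis gene (points) and the median of each role group (bars), by library. In condensin and chromosome structure OX40-knockout 1 sits at -0.23 and OX40-knockout 2 at 0.02, whereas in kinases and cyclins they sit at -0.09 and -0.10. After GC correction, not drawn here, the former are -0.035 and -0.041 and the latter -0.045 and -0.058.

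The order of the role groups was not the same in the 2 knockout libraries. The median deviation of OX40-knockout 1 was -0.23 for condensin and chromosome structure, -0.18 for kinetochore and centromere, -0.14 for kinesins, -0.10 for cytokinesis, -0.09 for kinases and cyclins and -0.01 for spindle assembly and anaphase. For OX40-knockout 2 the order was different, from -0.10 for kinases and cyclins through -0.07 for both kinesins and spindle assembly and anaphase to 0.02 for condensin and chromosome structure. Wild-type 2 was above wild-type 1 in each of the 6 groups, at 0.10 to 0.13 against 0.01 to 0.09. After GC correction the group medians lay closer together. Those of OX40-knockout 1 ran from -0.05 for kinetochore and centromere to 0.03 for cytokinesis. Those of OX40-knockout 2 ran from -0.07 for kinesins to -0.04 for condensin and chromosome structure. The condensin and chromosome structure median in OX40-knockout 1 was then -0.03. No test was made of differences between role groups, which rest on the same 4 libraries.

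GC content of the transcripts moved with these deviations. The members had a median GC content of 46.4%, against 50.5% over all genes tested, with role group medians from 42.5% for condensin and chromosome structure to 53.1% for spindle assembly and anaphase. Of the 42 genes 17 lay in the lowest of 5 equal bins of tested genes by GC content and 1 in the highest. In that lowest bin the median log2 difference between genotypes was -0.21 for the 17 members and -0.12 for all genes, and in the next bin -0.20 for 9 members and -0.09 for all genes. In the middle bin it was -0.09 for 8 members against -0.03, and in the bin above it -0.04 for 7 members against 0.03. Plk1, the 1 member in the highest, was at -0.14 against 0.10. Across the 42 genes, which share the 4 libraries, GC content and the deviation in OX40-knockout 1 had a Pearson correlation of 0.78, and 0.43 across 11575 tested genes. With the GC trend removed from each library, 38 of 42 members were lower (49.4% of all tested genes were), with Anln, Bub1b, Ccnb2 and Ect2 above 0. The median was -0.08 against 0.0020 over all genes, and 22 were lower in both knockout libraries (12.8% of all genes were).

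**Figure D5:**
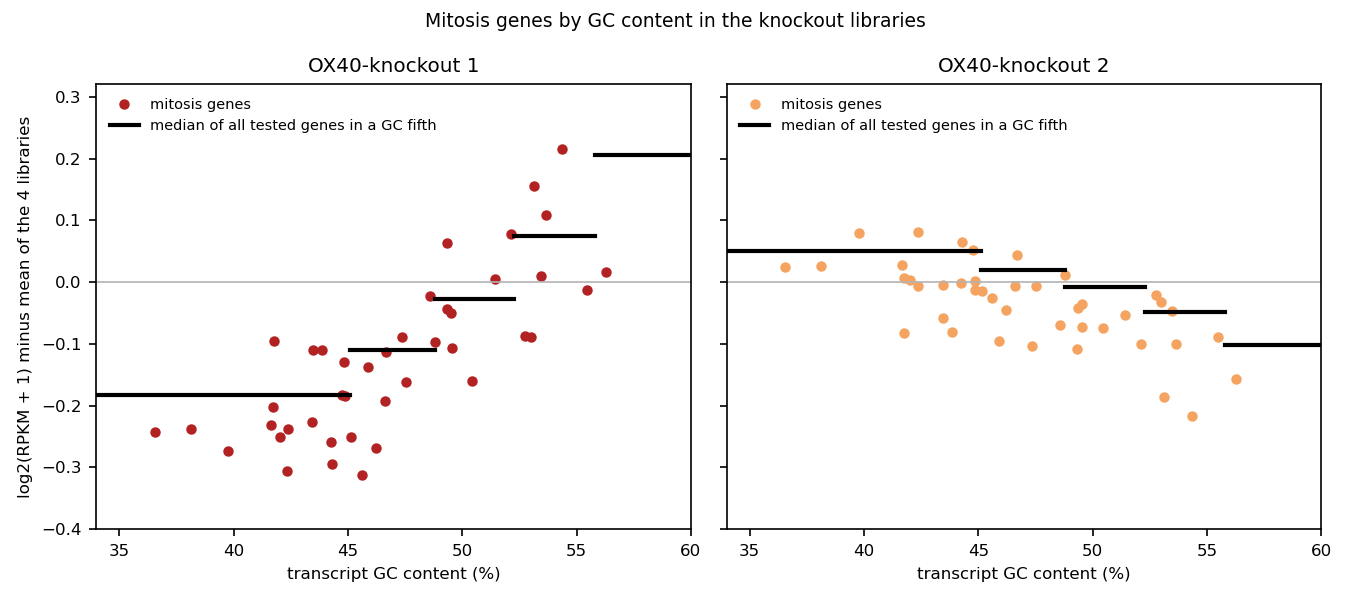
Deviation of log2(RPKM + 1) from the mean of the 4 libraries (vertical axis) against transcript GC content in percent (horizontal axis) for the 42 mitosis genes in OX40-knockout 1 (left) and OX40-knockout 2 (right), with the median of all tested genes in each of 5 GC bins as black bars. In OX40-knockout 1 the bars climb with GC content from -0.18 to 0.21 and the genes climb too, and in OX40-knockout 2 the bars decline from 0.05 to -0.10 and the genes decline too.

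The sum of the 3 NK genes was lowest in OX40-knockout 1, as were 30 of the 42 mitosis genes, and the summed coreceptor level was highest there. The NK and myeloid sums were higher in both libraries numbered 2 than in both numbered 1. The NK gene Ncr1 was at 0.41 and 7.93 RPKM (wild-type) against 0.18 and 7.49 RPKM (knockout). For the mitosis genes the median deviation was 0.05 in wild-type 1 and 0.11 in wild-type 2, against -0.12 in OX40-knockout 1 and -0.03 in OX40-knockout 2. Within each genotype it was higher in the library numbered 2, and wild-type 1 was above OX40-knockout 2. The part of other cells in the mitosis differences was not tested, and in these bulk libraries fewer dividing cells cannot be told apart from less mitotic RNA per cell.

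A wider list of 68 further mitosis genes, none of them among the 42, was described in the same way. In it 54 genes were lower on the log2 scale (56.6% of all tested genes were), 34 were lower in both knockout libraries (17.8% of all), none was higher in both (8.66% of all), and the median log2 difference was -0.15. After GC correction 56 were lower (49.4% of all), 18 were lower in both knockout libraries (12.8% of all), and the median was -0.06. No gene passed the limma test (lowest adjusted p = 0.975, and 0 at an unadjusted p under 0.05). Of 25 further kinetochore and centromere genes 24 were lower, with a median of -0.17. Zwint, a kinetochore scaffold, had the highest level among them, at 113 and 101 RPKM (wild-type) against 90.5 and 99.4 RPKM (knockout). Of 5 further kinesins 4 were lower, Kif18b among them with a log2 difference of -0.0090 and a higher mean RPKM in the knockout (24.4 against 24.3), with Kifc1, a minus-end motor, at 46.3 and 51.3 against 55.8 and 42.8 RPKM. Of 11 further genes of condensin and cohesin 8 were lower, and Ncapd2, the condensin I subunit of highest level, was at 218 and 226 against 232 and 207 RPKM. Of 12 further kinases and regulators 8 were lower, with Cks1b, a small CDK-binding protein, at 89.2 and 89.6 against 85.8 and 85.4 RPKM. The 4 further cytokinesis genes had log2 differences below 0, with a median of -0.16, or -0.06 after GC correction. Cit, a kinase of the midbody, was at 27.7 and 29.6 against 33.4 and 24.5 RPKM, so its log2 difference was -0.0026 while its mean RPKM was higher in the knockout (28.9 against 28.7). Of 11 further spindle genes 6 were lower, with Tacc3, a protein of spindle microtubules, at 82.8 and 81.7 against 88.2 and 78.0 RPKM. The 56 of these 68 genes with a promoter window held a CHR in 33 cases (58.9%), against 21.7% of all genes in the promoter table. A CHR within 50 bases of the start was present in 25 (44.6%), against 6.12% of all. Without OX40-knockout 1, 66 of the 68 were lower, where 58.9% of all tested genes were.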

How the data were processed

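RNA libraries of 2 wild-type and 2 OX40-knockout cell samples were analysed. The authors deposited 1 table of RPKM values. Its header names no unit, so the unit was settled from the values, whose lowest steps in genes with 1 transcript equal 1 read at the annotated length. Per the submitters' processing notes, Bowtie 0.12.2 and build mm8 were used, and the annotation, counting tool, strand and handling of multi-mapping reads are, in the sources used here, not given. GENCODE vM21 gave symbols (for 34490 IDs), lengths and GC content.

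The test was limma 3.58.1 (R 4.3.3; empirical Bayes with a mean-variance trend, no block) on log2(RPKM + 1). It covered 11625 genes whose mean reached 1 RPKM, all 42 members among them, with Benjamini-Hochberg adjustment and a threshold of 0.05. Log2 differences of RPKM + 1 understate those of low genes. Whole reads were recovered for 20995 of 20996 genes above 0 (tolerance 0.001 read, lengths of 30 to 30000 bases, the fitting length nearest the annotated mean). They sum to 102% of the library totals, so the reads of some genes may be too high by a common factor. limma-voom and the Poisson intervals used them. The scripts were tested on simulated data, in which the changed genes differed by more than any member did. Those runs do not show how the test handles differences as small as those described here. Other software was pandas 2.3.3, numpy 2.4.6 and matplotlib 3.10.9 under Python 3.11.15. Members and lists were chosen with earlier results of these data known. In each role group, values are printed for the 2 genes of highest mean, the 2 of lowest p and the 1 of lowest mean, with Mki67, Top2a and Foxm1, for the gene of highest mean in each other list, and for Cd4, Cd3e and Tnfrsf4. Any other gene was named after its values were seen. Alternatives are scaling, pseudocount, filter, left-out libraries, GC correction by loess and a replicate block.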

Additional observations from a re-analysis of the deposited data

How the results depend on the processing

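No mitosis gene passed the limma threshold under any of the 14 alternatives, and 37 to 41 of the 42 were lower when 1 library was left out. Over all genes tested, the number called was 1 with quantile normalization and between 0 and 1 when 1 library was left out. GC correction gave medians of -0.084 for all members, -0.12 for kinesins, -0.079 for kinetochore and centromere, -0.093 for kinases and cyclins, -0.056 for condensin and chromosome structure and -0.015 for cytokinesis. Leaving out 1 library gave medians of -0.20 to -0.11 for all members, -0.25 to -0.13 for kinesins, -0.25 to -0.093 for kinetochore and centromere, -0.21 to -0.11 for kinases and cyclins, -0.34 to -0.082 for condensin and chromosome structure, -0.15 to -0.069 for cytokinesis and -0.15 to -0.056 for spindle assembly and anaphase. Without OX40-knockout 2, 18 of 42 members and 3832 of all 11625 genes had an unadjusted limma p under 0.05, and the lowest adjusted p of a member was 0.0675. The direction reversed for Anln (0.0017), Aurkb (-0.011) and Bub1b (0.020), and for Ccnb2 (0.0093) and Ect2 (0.043), after GC correction, and for Cdc20 (0.031) with median-of-ratios scaling. It reversed for Aurkb (-0.10) and Bub1b (0.01) without OX40-knockout 1, for Cdc20 (0.22) and Foxm1 (0.14) without OX40-knockout 2, for Aurkb (-0.06) without wild-type 1, and for Bub1b (0.021), Cdc20 (0.07), Foxm1 (0.02) and Racgap1 (0.014) without wild-type 2. Aurka also turned above 0 with median-of-ratios scaling and without wild-type 1 or OX40-knockout 2, as did Ccnb2 without OX40-knockout 2. Leaving out 1 library gave a range of -0.10 to 0.11 for Aurkb, -0.16 to 0.021 for Bub1b, -0.22 to 0.22 for Cdc20, -0.20 to 0.14 for Foxm1 and -0.11 to 0.014 for Racgap1. Where a cause is not named by the alternative itself, the cause was not tested. In settings chosen after seeing the data, the number lower in both knockout libraries was 22 after GC correction (12.8% of all tested genes were). It was 25 with median-of-ratios scaling and 28 with quantile normalization. When 1 library was left out it was 31 to 38, but 1 library against 2 can stand apart more easily than 2 against 2. Without OX40-knockout 1 it was 38 (41.5% of all tested genes) and without OX40-knockout 2 it was 35 (46.8%). For the scaling, the quantile normalization and the left-out wild-type libraries the share of all genes was not computed. In the limma fits without 1 library, the lone library of a group is assumed to vary like the other group.

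The libraries share only a number. With the replicate number as a block limma called 5 genes, and 1 with GC correction and the block, none of them a member, and the members' median was -0.16, or -0.084 with GC correction and the block. The medians of the role groups with GC correction and the block were -0.12 for kinesins, -0.079 for kinetochore and centromere, -0.093 for kinases and cyclins, -0.056 for condensin and chromosome structure and -0.015 for cytokinesis, and Anln (0.0017), Aurkb (-0.011) and Bub1b (0.020) were reversed there, among the genes named by rule. Same-numbered libraries deviated together with a correlation of 0.47 in both pairs, which 2 libraries a group force to be equal.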

Other observations

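DNA replication genes, which act in S phase before the genes described above, had a median closer to 0 than the mitosis genes. Of 19 tested, 15 had a lower mean in the knockout and 10 showed no overlap between genotypes, all lower, where 56.6% and 17.8% of all tested genes did. After GC correction these were 13 and 6 genes, against 49.4% and 12.8% of all. The median log2 difference was -0.09, or -0.03 after GC correction, and limma called 0, with 0 at an unadjusted p under 0.05. Pcna, the sliding clamp of the replication fork, had the highest mean, at 407 and 418 RPKM (wild-type) against 349 and 426 RPKM (knockout), so the groups overlapped. Pold1, the catalytic subunit of DNA polymerase delta, was at 104 and 112 against 149 and 102 RPKM, highest in OX40-knockout 1, and was chosen after its values were seen. The CHR was present for 4 of the 16 genes of this list with a promoter window (25%), near the 21.7% of all genes in the promoter table. The difference between the replication and mitosis genes was not tested.

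Of 10 genes linked to quiescence, 7 were higher and 3 lower on average in the knockout libraries, where 56.6% of all tested genes were lower. The median was 0.10, and limma called 0, with 0 at an unadjusted p under 0.05. Without OX40-knockout 1 the median was -0.08 and 7 were lower. Rbl2, the pocket protein p130 of the DREAM complex, had the highest mean, at 84.6 and 94.3 RPKM (wild-type) against 95.9 and 84.9 RPKM (knockout). Klf2, a factor of resting T cells, was at 6.97 and 3.795 against 20.3 and 6.91 RPKM, highest in OX40-knockout 1, and was chosen after its values were seen. Its groups overlapped. Only Btg1 (log2 difference 0.17) had both knockout values above both wild-type values, where 8.66% of all tested genes did. The reverse held for 2 of the 10 genes, Cdkn1b (-0.32) and Cdkn2c (-0.25), against 17.8% of all. Both counts are near those shares and are not read as a trait of this list.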
